A study of Mus musculus with 32 samples.

Results

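The tripartite motif (Trim) genes encode proteins named for a RING finger, B-box zinc fingers and a coiled coil at their amino terminus. Most act as E3 ubiquitin ligases, which attach ubiquitin to chosen proteins. Several are switched on by type I interferon in macrophages and other cells and then adjust antiviral sensing, retroviral restriction and NF-kB signalling, while others are corepressors in the nucleus or work in neurons, muscle and epithelium. Interferon acts through receptors that activate transcription factors binding the interferon-stimulated response element (ISRE) in promoters. Pristane (TMPD), a hydrocarbon oil, gives mice chronic peritoneal inflammation with interferon production and, depending on the strain, lupus-like autoantibodies or plasma cell tumours.

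All 58 genes whose array symbol is Trim followed by digits and an optional letter were taken, of 18193 genes on the array with a probe set of a single symbol. Each was represented by the brightest of its probe sets, and 38 of the 58 gave a signal above 103.7 on at least 3 of the 32 arrays and were tested, with 13016 genes in all. The other 20 did not: Trim5, Trim7, Trim12a, Trim15, Trim17, Trim31, Trim40, Trim42, Trim43a, Trim54, Trim60, Trim61, Trim62, Trim63, Trim66, Trim69, Trim71, Trim72, Trim75 and Trim80. The members were picked by name alone, though with earlier results of these data known. A Trim gene was said to follow the interferon pattern when it rose in DBA mice at day 18 and its day 18 response also exceeded its day 3 response, the order shown by the type I interferon-stimulated genes in these mice.

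RNA came from the mesentery, the sheet of fat, vessels and mesothelium that carries the gut. Mice received 0.5 ml of pristane into the peritoneal cavity, and untreated mice of the same strain were prepared alongside, so the controls had no injection. At day 3, treated and untreated BALB/c, DBA and BALB/DBA F1 mice (CDF1 in the titles) were measured on 3 arrays per group. At day 18, BALB/c mice were measured on 4 treated and 4 untreated arrays and DBA mice on 3 and 3. Title codes fall into 3 runs of names, 1 for all of day 3 and 1 for each strain at day 18. The labels do not say what these code runs mark, so whether they are batches is not known. Each of the 5 responses set treated arrays against same-strain controls of the same code run. Day 18 and day 3 arrays therefore differ in code run as well as in time. The labels give neither age nor sex, and they do not say whether an array held 1 mouse or a pool. The BALB/c codes of the day 18 run contain the letters mix, and 1 untreated DBA title of the day 18 run joins a pair of numbers. Whether these mark pools is not stated. The p-values therefore speak of array-to-array spread, part of which may be technical.

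Array medians ran from 90.6 to 135.3. Within groups, arrays correlated at 0.97 to 0.988 (log2 scale), except the untreated BALB/c array of the day 18 run numbered replicate 2, which correlated with no array above 0.891. The mean log2 signal of 7 pancreatic acinar genes was 16.8 on that array against a median of 5.68 over all arrays, and 6 of the 8 arrays of that run stood above every array of the other runs. All groups shared 1 variance estimate, so that array also widens errors elsewhere; results are given without it where a call changed. The treated F1 arrays had an Xist signal of at least 12293.5 and the untreated F1 arrays of at most 107.1, so the F1 groups may differ in sex. Treatment and sex then cannot be told apart in the F1 response. It was repeated against untreated BALB/c and DBA arrays of the same run. Those parental controls differ from F1 mice in strain and their Xist signal is not given here, so the repeat cannot separate sex from treatment. Macrophage markers were present in the treated mesentery: the mean log2 signal of 8 markers was 11.66 to 12.31 in DBA mice at day 3 against 9.81 to 10.09 in their controls, and 12.68 to 12.99 against 9.93 to 10.46 at day 18.

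The promoter sequences below are shown because the ISRE letters, which the choice of members did not use, occur in Trim30a, Trim30d and other members; the Trim25 stretch, which lacks them, is given last for comparison. They come from RefSeq on the mouse assembly GRCm38.p6, read 5′ to 3′ on the gene's own strand. Capitals mark each match to the ISRE letters GAAANNGAAA on either strand (TTTC is the reverse complement of GAAA). Trim30a lies at chr7:104465194-104465293 (minus strand), Trim30d at chr7:104507850-104507949 (minus), Trim12c at chr7:104353350-104353449 (minus) and Trim25 at chr11:88999303-88999402 (plus), each the 100 bases before the start. Trim26 is at chr17:36836976-36837145 (plus), the 170 bases before the start. For Trim21, at chr7:102565446-102565475 (minus), and Trim34a, at chr7:104244457-104244486 (plus), the match lies just after the start and 30 bases are given. Trim30a has another start, in the window chr7:104446076-104446375, with the letters just after it. The Trim30a stretch shown was picked because its match lies before the start. That stretch and the Trim30d stretch were identical at 94 of 95 aligned positions (98.9%).
Trim30a: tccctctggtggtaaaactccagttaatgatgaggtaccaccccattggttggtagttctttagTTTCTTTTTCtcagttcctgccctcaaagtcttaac
Trim30d: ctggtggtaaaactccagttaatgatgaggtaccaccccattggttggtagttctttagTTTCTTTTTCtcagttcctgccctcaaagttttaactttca
Trim12c: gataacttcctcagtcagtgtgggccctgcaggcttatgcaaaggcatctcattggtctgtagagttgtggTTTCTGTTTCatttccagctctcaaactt
Trim26: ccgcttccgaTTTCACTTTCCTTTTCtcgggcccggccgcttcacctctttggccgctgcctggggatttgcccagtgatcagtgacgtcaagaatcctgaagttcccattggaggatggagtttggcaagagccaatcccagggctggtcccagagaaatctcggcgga
Trim21: tgagagGAAACTGAAAGTGAAAtttggact
Trim34a: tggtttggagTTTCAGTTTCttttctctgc
Trim25: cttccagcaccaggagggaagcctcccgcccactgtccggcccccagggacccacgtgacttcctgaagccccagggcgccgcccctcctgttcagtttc

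In windows from 250 bases before to 50 bases after a start, the ISRE letters occurred in 9 of the 47 Trim genes with an entry (19.1%) and in 1079 of 27025 genes in all (3.99%). Among 22 interferon-stimulated genes with an entry, 11 held them (50%). The 9 Trim genes with ISRE letters were Trim2, Trim5, Trim12a, Trim12c, Trim21, Trim26, Trim30a, Trim30d and Trim34a, of which Trim5 and Trim12a were not tested for signal. In Trim21 and Trim26 a pair of matches overlapped. The Trim25 window held no match, which says only that these letters are not in that window, and Trim14 has no entry.

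Trim genes moved in every response, upward more often than downward. A gene is called changed when its adjusted p is below 0.05 (limma, Benjamini-Hochberg over all 13016 genes); a change is a difference of mean log2(signal + 24.9), which understates the change of dim genes. In BALB/c mice at day 3, 13 of the 38 Trim genes were called higher and 4 lower, where 18.3% of all genes were called higher and 17.2% lower (35.5% in all). In F1 mice 15 were higher and 5 lower, against 18.6% and 18% of all genes (36.5%). In DBA mice at day 3, 7 were higher and 3 lower, against 16.4% and 13.4% (29.8%). At day 18, BALB/c mice had 15 higher and 3 lower, against 21.7% and 22.2% (43.9%), and DBA mice 15 higher and 5 lower, against 22.4% and 25% (47.4%). The called share of Trim genes was 44.7%, 52.6%, 26.3%, 47.4% and 52.6% in that order, near the share of all genes in DBA mice at day 3 and in both strains at day 18. Without the 3 genes of the interferon pattern described below it was 40%, 48.6%, 25.7%, 42.9% and 48.6% of 35 genes.

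The median change of the 38 genes was 0.22 in BALB/c and 0.13 in F1 mice at day 3, 0.17 in DBA mice at day 3, 0.26 in BALB/c and 0.16 in DBA mice at day 18, where the median of all genes lay between -0.04 and 0.001. The BALB/c day 3 count of 17 fell to 11 without treated replicate 1 or without untreated replicate 3. Without the pancreas-rich array the 5 counts were 22, 23, 15, 21 and 23.

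**Figure D1:**
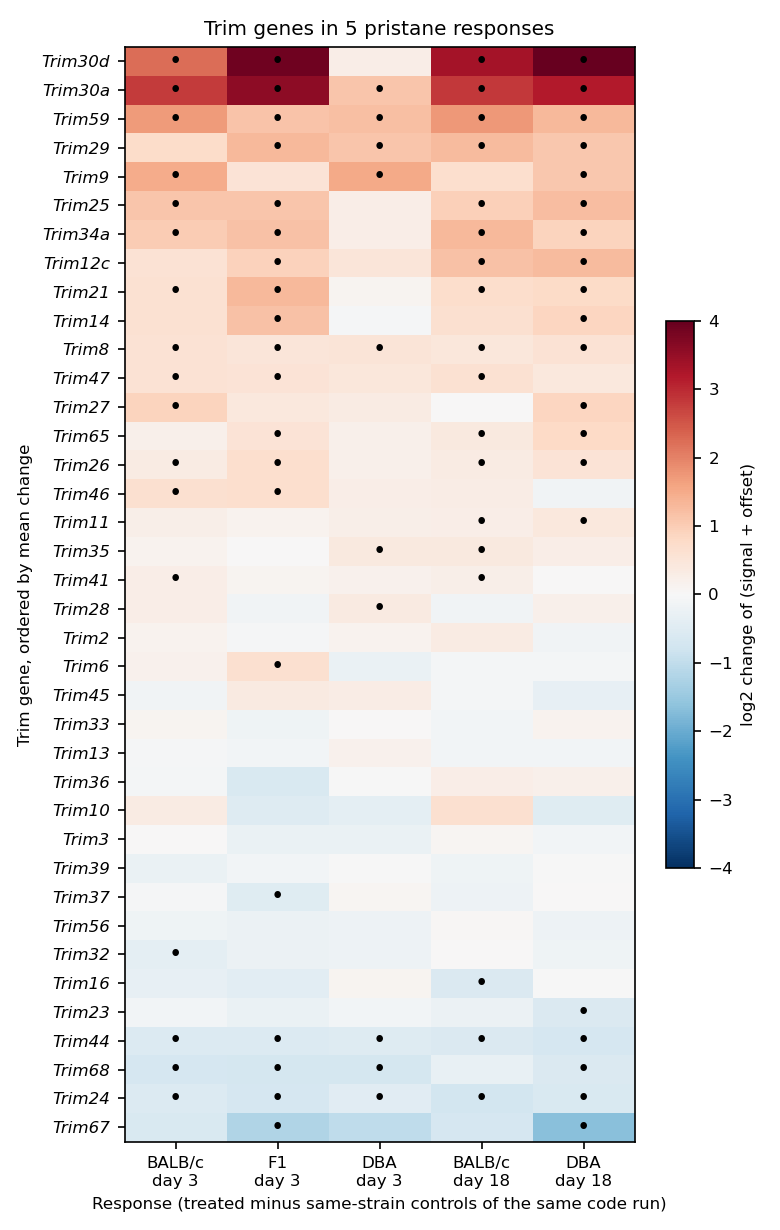
Log2 change of each of the 38 tested Trim genes (rows, ordered by mean change) in the 5 responses (columns); red is higher and blue lower in treated mice, and a dot marks a call at adjusted p below 0.05. Trim30d and Trim30a head the map with their lightest cells at DBA day 3, and Trim44, Trim68, Trim24 and Trim67 close it.

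No Trim gene was called higher in 1 response and lower in another. Trim8, Trim30a and Trim59 were called higher and Trim24 and Trim44 lower in all 5 responses, each of which has its own treated and control arrays. Trim21, Trim25, Trim26, Trim30d and Trim34a were called higher in the 4 responses other than DBA day 3. Trim2, Trim3, Trim10, Trim13, Trim33, Trim36, Trim39, Trim45 and Trim56 were called in none, and the remaining 19 in 1 to 4. Because mesentery is a mixture, a cell type that becomes more or less common cannot be told apart from more or less RNA per cell.

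The interferon pattern was followed by Trim30a, Trim30d and Trim25, 3 of the 38 (7.89%), where 2.36% of all genes and 28 of 29 type I interferon-stimulated genes (96.6%) followed it. The pattern was modelled on the interferon-stimulated genes in these same data, so their share is description only. Trim30a, Trim30d and Trim25 were the Trim genes called in the difference between the DBA responses, in which 2.47% of all genes were called higher and 1.72% lower (4.19% in all). The DBA day 18 values and day differences chose these 3 genes and are given as description, without p-values. The DBA day 3 arrays also entered the choice, which favours a low DBA day 3 response. For these 3 genes, p-values of that response and of differences from it are therefore not independent of the choice. The BALB/c and F1 responses on their own come from other arrays. In those responses, all 3 were called higher in BALB/c mice at both days and in F1 mice. Of all genes, 18.3% and 21.7% were called higher in BALB/c mice at day 3 and day 18 and 18.6% in F1 mice. Each gene's variance was estimated over all groups, so these calls are not fully independent of the choice either. Trim30d also passed the filter partly through treated BALB/c and F1 arrays. Of 8 macrophage markers 3 were also called higher in the difference between the DBA days. Of the 8 differences, 4 were positive and 4 negative, with a median of 0.07. Of 6 adipocyte markers 0 were called in DBA mice at day 3 and 5 were called lower at day 18; all 6 were lower at day 18 than at day 3 in the difference of responses (median -1.19), 0 of them called and 5 at an unadjusted p below 0.05. The mean log2 signal of the adipocyte markers was 13.31 to 13.4 in DBA mice at day 3 against 13.45 to 13.81 in controls, and 10.81 to 12.4 at day 18 against 13.33 to 13.47. The part of either cell type in the Trim values was not tested.

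Trim30a (chr7:104409025-104465193, GRCm38.p6), which in macrophages restrains NF-kB signalling downstream of Toll-like receptors, rose in all 5 responses. In BALB/c mice at day 3 its signals were 3474, 2615 and 4879.5 against 481, 497 and 478 in controls. In F1 mice they were 6079, 4967 and 5191 against 387, 418 and 502, and in DBA mice at day 3 they were 914, 857 and 655 against 347, 383 and 347. Every treated array exceeded every control in all 3 groups, with the DBA arrays far below the other treated arrays. At day 18 the signals were 4228, 2936, 2624 and 3314 against 503, 277, 579 and 421 in BALB/c mice and 3564, 3175 and 4004 against 416, 332 and 376 in DBA mice.

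The log2 change of Trim30a was 2.80 (SE 0.21, adjusted p = 2.01e-10) in BALB/c and 3.56 (SE 0.21, adjusted p = 2.04e-12) in F1 mice at day 3. It was 1.11 (SE 0.21, adjusted p = 0.000234) in DBA mice at day 3, so this gene rose there, but less: the response in BALB/c exceeded that in DBA mice by 1.70 (SE 0.29, adjusted p = 0.00676) and that in F1 mice by 2.46 (SE 0.29, adjusted p = 1.09e-05). At day 18 the changes were 2.84 (SE 0.18, adjusted p = 2.98e-12) in BALB/c and 3.17 (SE 0.21) in DBA mice, and the DBA response had grown by 2.07 (SE 0.29). The day 18 difference between the strains was -0.34 with adjusted p = 0.541, and that between BALB/c responses at day 18 and day 3 was 0.03 with adjusted p = 0.98. A second, dimmer probe set of Trim30a changed by 2.77, 3.60, 0.89, 2.48 and 3.86 in the same order (BALB/c, F1 and DBA at day 3, then BALB/c and DBA at day 18).

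Trim30d (chr7:104470014-104507853), its neighbour, was dim in untreated mice and in DBA mice at day 3. Treated BALB/c arrays at day 3 read 168, 81.3 and 521 against 22.8, 22.5 and 21.4 in controls, a wide spread above a tight floor. F1 arrays read 1196, 816 and 1139 against 59.8, 39.1 and 42.8. DBA arrays at day 3 read 37.3, 28.4 and 6.5 against 11.1, 33.6 and 4.3, so the groups overlapped at a level below the detection filter. At day 18 the signals were 691, 563, 354 and 483 against 45.2, 10.2, 48.0 and 19.0 in BALB/c and 691, 304 and 896 against 31.4, 9.0 and 4.1 in DBA mice.

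At day 18 every treated array exceeded every control in both strains. The changes of Trim30d were 2.25 (SE 0.44, adjusted p = 0.000253), 3.89 (SE 0.44, adjusted p = 1.21e-07) and 0.25 (SE 0.44, adjusted p = 0.72) in BALB/c, F1 and DBA mice at day 3. They were 3.33 (SE 0.38, adjusted p = 9.08e-08) in BALB/c and 3.98 (SE 0.44) in DBA mice at day 18, and the DBA response differed between the days by 3.73 (SE 0.62). Trim30d passed the filter through 12 treated arrays, none of them of DBA mice at day 3, which favours its rise elsewhere; with no filter its BALB/c changes had adjusted p = 0.000339 at day 3 and 1.14e-07 at day 18. The F1 response exceeded the DBA day 3 response by 3.64 (SE 0.62, adjusted p = 0.000764); with no offset before the log this difference was 3.78 (adjusted p = 0.0781). The excess of the BALB/c response was 1.99 (SE 0.62, adjusted p = 0.185), which missed the threshold. Trim30a and Trim30d are near copies, so their probe sets may share transcripts, and 1 further probe set on the array carries both symbols.

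Trim25 (chr11:88999403-89020294), the E3 ligase that ubiquitinates the RNA sensor RIG-I and attaches ISG15 to proteins, was abundant before treatment. BALB/c arrays at day 3 read 4920.1, 4437 and 5652 against 2068, 2327 and 2577, and F1 arrays 5427, 4493 and 5663 against 2361, 2364 and 2362. DBA arrays at day 3 read 2396, 2278 and 1905 against 1508, 1989 and 1930.3, with the lowest treated array below 2 of the controls. At day 18 the signals were 6221, 4873, 4721 and 5760.5 against 2392, 3052, 2908 and 2809.5 in BALB/c and 5043, 4504 and 5112 against 2272, 1958 and 1944 in DBA mice, without overlap in either.

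The changes of Trim25 were 1.10 (SE 0.13, adjusted p = 3.04e-07) in BALB/c and 1.12 (SE 0.13, adjusted p = 1.86e-07) in F1 mice, 0.28 (SE 0.13, adjusted p = 0.113) in DBA mice at day 3, 0.94 (SE 0.11, adjusted p = 1.95e-07) in BALB/c at day 18 and 1.24 (SE 0.13) in DBA mice at day 18. The DBA response grew between the days by 0.96 (SE 0.18). The BALB/c response at day 3 exceeded the DBA response by 0.82 (SE 0.18, adjusted p = 0.0364), a call that was lost when any 1 of 8 arrays was left out, and the F1 response did so by 0.84 (SE 0.18, adjusted p = 0.00916). The other probe sets of Trim25 disagreed about DBA day 3: they changed by 0.58 (adjusted p = 0.00553) and 0.71 (adjusted p = 0.0161), and their growth between the days was 0.74 (adjusted p = 0.0584) and 0.85 (adjusted p = 0.133). With the most variable probe set of each gene, Trim25 therefore left the pattern and 2 Trim genes remained in it.

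**Figure D2:**
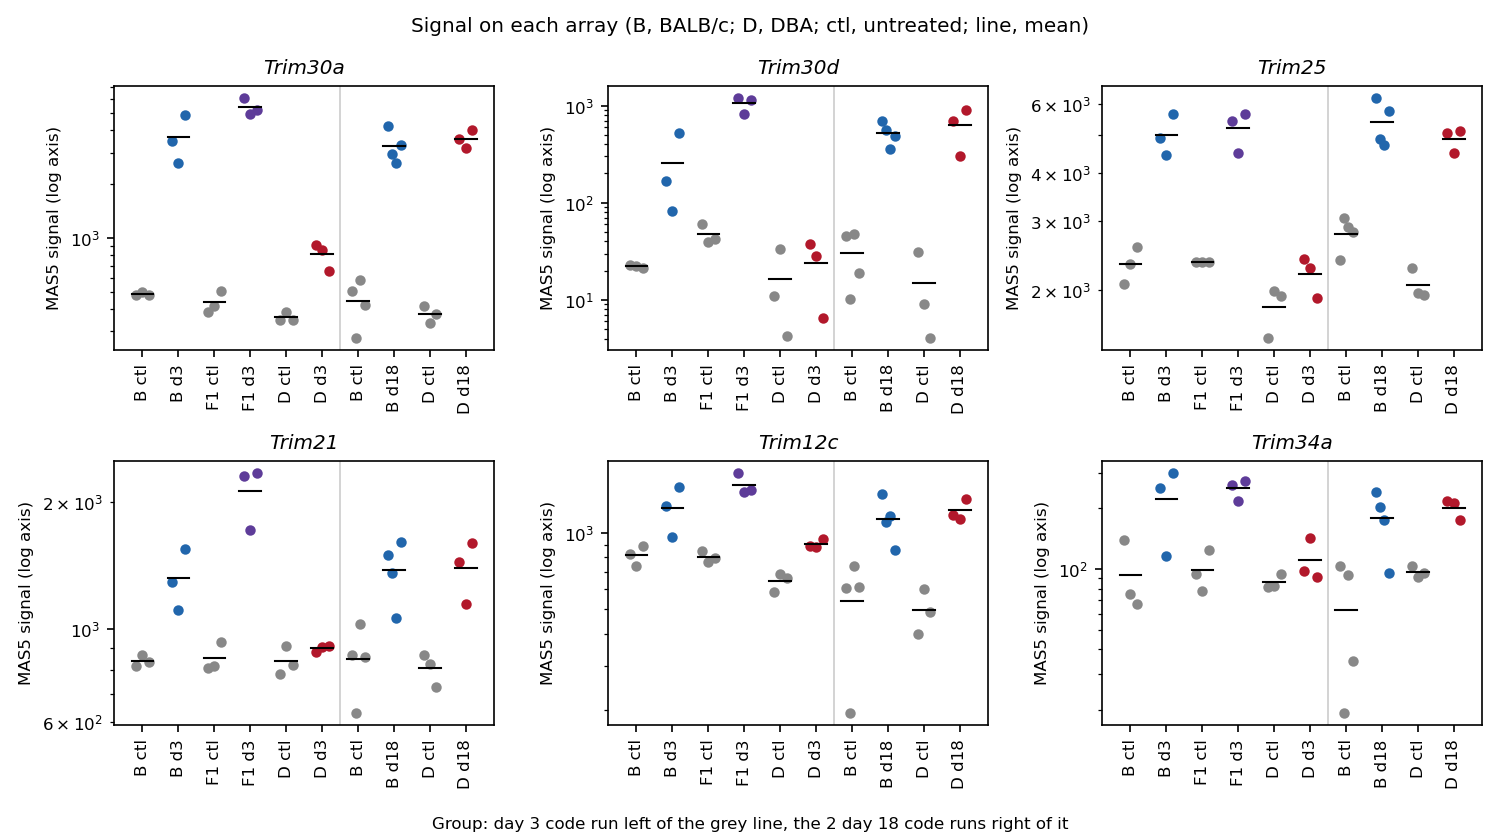
Signal on every array (points; log axis) of Trim30a, Trim30d, Trim25, Trim21, Trim12c and Trim34a by group, with a line at the group mean; grey points are untreated arrays. In the Trim30a panel the 3 DBA arrays at day 3 lie between 655 and 914 while every other treated array is at 2615 or more.

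Trim21 and Trim12c came near the pattern. Trim21 is the cytosolic antibody receptor known as the Ro52 autoantigen. F1 arrays read 2310.3, 1716 and 2343 against 808, 818 and 928, and DBA arrays at day 3 gave 879.6, 903 and 912 against 782, 908 and 821, barely above their controls with overlap. DBA arrays at day 18 read 1443, 1147 and 1598 against 869, 828 and 727, without overlap. The changes were 0.62 (adjusted p = 0.00313) in BALB/c, 1.28 (adjusted p = 5.84e-07) in F1 and 0.10 (adjusted p = 0.687) in DBA mice at day 3, and 0.69 (adjusted p = 0.000212) in BALB/c and 0.76 (adjusted p = 0.000303) in DBA mice at day 18. The F1 response exceeded the DBA day 3 response by 1.18 (SE 0.23, adjusted p = 0.00256), while the DBA growth between the days, 0.66 (SE 0.23, adjusted p = 0.0968), missed the threshold.

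Trim12c, a mouse relative of the retroviral restriction factor TRIM5, read 885, 876 and 944 in DBA mice at day 3 against 585, 688 and 661, and 1178, 1138 and 1364 at day 18 against 399, 601 and 486. Treated arrays exceeded controls at both times. Its changes were 0.58 (adjusted p = 0.103) in BALB/c, 0.92 (adjusted p = 0.00948) in F1 and 0.47 (adjusted p = 0.207) in DBA mice at day 3, and 1.16 (adjusted p = 0.000251) in BALB/c and 1.28 (adjusted p = 0.000359) in DBA mice at day 18. The growth in DBA mice was 0.81 (adjusted p = 0.262). Without the pancreas-rich array, on which Trim12c read 195.8, the growth was 0.81 (adjusted p = 0.0213) for Trim12c and 0.66 (adjusted p = 0.0376) for Trim21, and 5 Trim genes followed the pattern. The BALB/c day 18 change of Trim12c was then 0.76 (adjusted p = 0.000113) and its DBA day 3 change 0.47 (adjusted p = 0.0183), a call.

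**Figure D3:**
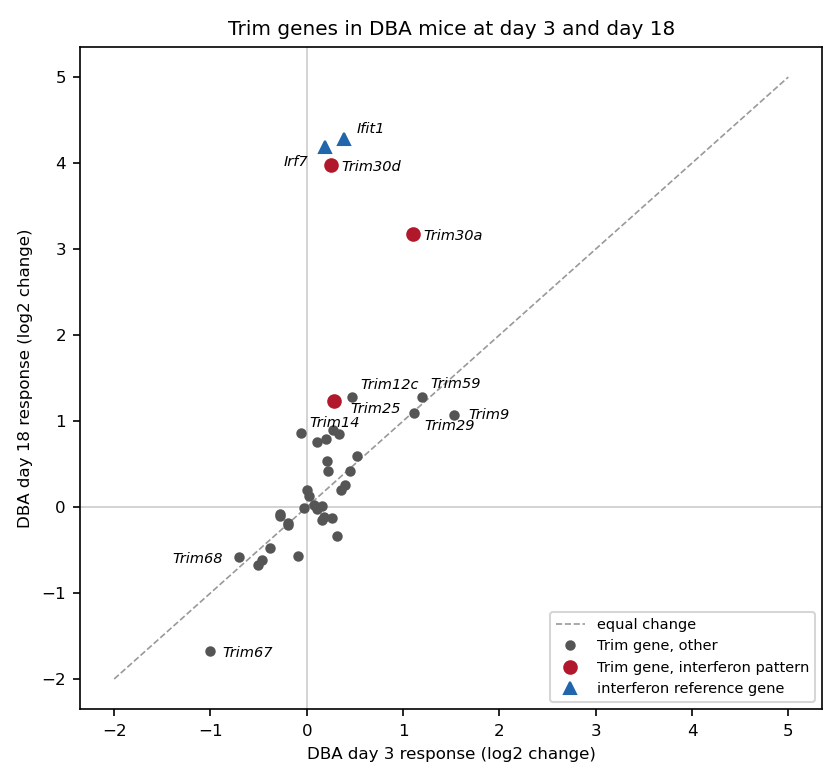
DBA day 3 response (horizontal) against DBA day 18 response (vertical), both as log2 change, for 38 Trim genes, with Irf7 and Ifit1 as interferon references; the dashed line marks equal change. Trim30d sits beside the references at 0.25 and 3.98, Trim30a at 1.11 and 3.17, and Trim59 close to the line at 1.20 and 1.28.

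The other Trim genes of the chromosome 7 family differed among themselves. By the list of the Trim5, Trim12, Trim30 and Trim34 cluster with Trim21 and Trim68, 7 of 12 genes were tested. Of these, 4, 6, 1, 5 and 5 rose and 1, 1, 1, 0 and 1 fell in BALB/c, F1 and DBA mice at day 3 and BALB/c and DBA mice at day 18. Of all genes, 18.3%, 18.6%, 16.4%, 21.7% and 22.4% were called higher and 17.2%, 18%, 13.4%, 22.2% and 25% lower. Trim34a, whose human counterpart binds retroviral capsids, changed by 1.02 (adjusted p = 0.0191), 1.17 (adjusted p = 0.00786), 0.27 (adjusted p = 0.602), 1.30 (adjusted p = 0.000732) and 0.90 (adjusted p = 0.0308). Trim34a passed the filter on 15 arrays, with 1 BALB/c and 1 F1 control of the day 3 run among them, which favours its rise. With no filter its adjusted p was 0.0266, 0.0111, 0.686, 0.00103 and 0.0417. Its treated and control arrays overlapped in BALB/c mice at both days, and the DBA day 18 call was lost without any 1 of 5 arrays. The BALB/c day 3 call of Trim34a was lost without any 1 of 4 arrays, and its dimmer probe set changed there by -0.10. Trim6, which supports interferon signalling through IKK-epsilon, was called in F1 mice, at 0.65 (adjusted p = 0.048); this call was lost under many settings, among them the parental controls, 0.50 (adjusted p = 0.0665).

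Trim68 (chr7:102677579-102687335) went the opposite way. BALB/c arrays at day 3 read 446, 564 and 476 against 852, 725 and 843, F1 arrays 354, 297 and 369.9 against 501, 574 and 624, and DBA arrays 392, 494 and 416 against 698, 717 and 748. Every treated array lay below every control. The changes were -0.68 (adjusted p = 0.00966), -0.70 (adjusted p = 0.00817) and -0.71 (adjusted p = 0.00907). At day 18 the change was -0.31 (adjusted p = 0.154) in BALB/c mice, or -0.49 (adjusted p = 0.017) without the pancreas-rich array, and -0.58 (adjusted p = 0.0205) in DBA mice, a call that was lost without treated replicate 2 or without untreated replicate 1 or 2. Trim68, an E3 ligase related to Trim21, fell in DBA mice at day 3, and the BALB/c response differed from the DBA response by 0.03 (SE 0.29, adjusted p = 0.989).

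Of the Trim genes listed as regulators of nucleic acid sensing and NF-kB signalling, 16 of 20 were tested. In BALB/c, F1 and DBA mice at day 3, 6, 6 and 3 rose and 2, 1 and 1 fell. The called share was 50%, 43.8% and 25%, against 35.5%, 36.5% and 29.8% of all genes. At day 18, 8 rose in each strain, with 1 lower in BALB/c and 2 lower in DBA mice. There 43.9% of all genes were called in BALB/c and 47.4% in DBA mice. Trim14 and Trim65, which like Trim25 act beside RNA sensors, rose in F1 mice and in DBA mice at day 18. Trim14, a RING-less adaptor of MAVS at mitochondria, changed by 1.18 (adjusted p = 0.0076) in F1, -0.06 (adjusted p = 0.925) in DBA mice at day 3 and 0.86 (adjusted p = 0.0378) in DBA mice at day 18, where 1 control overlapped. The DBA day 18 call of Trim14 was lost without any 1 of 4 arrays, and its dimmer probe set changed by 0.18 in F1 mice. Trim65, which ubiquitinates the sensor MDA5, changed by 0.54 (adjusted p = 0.00959) in F1 mice, 0.40 (adjusted p = 0.0207) in BALB/c mice at day 18 and 0.79 (adjusted p = 0.000198) in DBA mice at day 18. Without the pancreas-rich array the BALB/c value of Trim65 was 0.26 (adjusted p = 0.104).

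Trim26, which regulates IRF3, rose modestly in 4 responses, by 0.33 (adjusted p = 0.00802), 0.68 (adjusted p = 4.46e-06), 0.34 (adjusted p = 0.00165) and 0.54 (adjusted p = 4.63e-05) in BALB/c and F1 mice at day 3 and BALB/c and DBA mice at day 18. In DBA mice at day 3 it changed by 0.21 (adjusted p = 0.106). A dimmer probe set of Trim26 gave -0.50, 0.02, 0.25, -0.07 and -0.23 in the 5 responses, so its rise rests on the brighter set. Trim27, an inhibitor of IKK kinases, changed by 0.90 (adjusted p = 0.0296) in BALB/c mice at day 3 and 0.85 (adjusted p = 0.0318) in DBA mice at day 18; the first call was lost without any 1 of the 6 arrays compared, and the second without any 1 of 4. In BALB/c mice at day 18 its change was 0.02 (adjusted p = 0.955), with controls at 723, 3390.5, 704 and 806. The second of those is the pancreas-rich array, and without it the change was 0.56 (adjusted p = 0.000128).

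Trim59 and Trim8 of this list were called higher in DBA mice at day 3 as well. Trim59 (chr3:69035292-69044742), a membrane-anchored member that binds the Toll pathway adaptor ECSIT, read 381, 311 and 287 in treated BALB/c mice at day 3 against 119.8, 57.9 and 77.6. F1 arrays read 269.7, 176 and 265 against 129, 99.4 and 57.4, and DBA arrays at day 3 gave 268, 186 and 214 against 95.5, 84.4 and 67.6. No treated array fell to the level of a control. At day 18 the signals were 331, 279, 295 and 275 against 78.1, 32.7, 115 and 76.1 in BALB/c and 145, 336 and 238 against 82.1, 85.5 and 70.1 in DBA mice. The changes were 1.70 (adjusted p = 3.16e-05), 1.15 (adjusted p = 0.00208) and 1.20 (adjusted p = 0.0019) at day 3 and 1.74 (adjusted p = 2.01e-06) and 1.28 (adjusted p = 0.000454) at day 18. Trim59 passed the filter on 19 arrays, with 1 control each of F1 mice and of BALB/c mice of both runs among them, which favours its rise. With no filter its adjusted p was 4.76e-05, 0.00307, 0.00283, 3.08e-06 and 0.00068. The DBA responses differed by 0.08 (SE 0.40, adjusted p = 0.952), against 2.07 for Trim30a. A dimmer Trim59 probe set changed by 0.71, 0.81, 1.29, -0.30 and 0.47.

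Proliferation genes, a list on which 8 of 9 were called higher in each response, and macrophage markers, of which 8 of 8 were called higher in DBA mice at day 3, moved in the same responses as Trim59, and their part in its rise was not tested. Trim8, which binds SOCS1 and supports NF-kB signalling, read 1515, 1709 and 1629 against 1018, 1191 and 1027 in BALB/c mice at day 3 and 1713, 1549 and 1464 against 1115, 1059 and 1086 in DBA mice. Its changes were 0.58 (adjusted p = 0.000601), 0.47 (adjusted p = 0.00377), 0.52 (adjusted p = 0.002), 0.44 (adjusted p = 0.00132) and 0.59 (adjusted p = 0.000278) in the order used above, and the DBA responses differed between the days by 0.07 (SE 0.17, adjusted p = 0.898). The other probe set of Trim8 gave 0.15 (adjusted p = 0.495) in BALB/c mice at day 3 and 0.09 (adjusted p = 0.623) at day 18.

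Trim44 (chr2:102300119-102400900), a RING-less member with a zinc finger of the ubiquitin protease type, fell in every response. BALB/c arrays at day 3 read 2417, 2194 and 1996 against 3144, 3284 and 3288, F1 arrays 2371, 2231 and 2295 against 3419.7, 3523 and 3116, and DBA arrays 2193, 2635 and 2723 against 3721, 3754 and 3247. At day 18 BALB/c arrays read 2165, 2339, 2552 and 2298 against 3544, 3384, 3636 and 3399.6 and DBA arrays 2574, 2048 and 2257 against 3533, 3646 and 3764. Treated arrays lay below all controls throughout. The changes were -0.56 (adjusted p = 4.64e-05), -0.54 (adjusted p = 6.94e-05) and -0.50 (adjusted p = 0.000211) at day 3 and -0.57 (adjusted p = 2.54e-06) and -0.67 (adjusted p = 1.92e-06) at day 18, and both other probe sets were negative in all 5 responses. Adipocyte markers were called lower for 3, 2, 0, 6 and 5 of 6 genes in the 5 responses, and their part in the falls of Trim44 and Trim24 was not tested.

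Other regulators were called in few responses. Trim11 changed by 0.26 (adjusted p = 0.0164) and 0.42 (adjusted p = 0.000843) at day 18 in BALB/c and DBA mice. Trim35, an inhibitor of IRF7, changed by 0.40 (adjusted p = 0.0117) in DBA mice at day 3 and 0.39 (adjusted p = 0.00301) in BALB/c mice at day 18, and Trim41 by 0.27 (adjusted p = 0.023) and 0.23 (adjusted p = 0.02) in BALB/c mice. Trim23, which carries an ARF domain, changed by -0.56 (adjusted p = 0.0258) in DBA mice at day 18, and Trim32, a ligase of STING that is mutated in a muscular dystrophy, by -0.38 (adjusted p = 0.0439) in BALB/c mice at day 3. The Trim32 call was lost without any 1 of the 6 arrays compared, and those of Trim11, Trim35 and Trim41 in BALB/c or DBA mice, other than the Trim35 call at day 18 and the DBA call of Trim11, without at least 1 array. The Trim23 call was lost without treated replicate 2 or untreated replicate 1. Trim13, Trim39 and Trim56 were called in none.

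Of the TIF1 corepressors, which recruit heterochromatin proteins or act with nuclear receptors and Smads, 3 of 4 were tested. Trim24 (TIF1-alpha; chr6:37870811-37968445) read 531, 566 and 654 in treated BALB/c mice at day 3 against 804, 982 and 816, and 864, 977 and 811 in DBA mice against 1252, 1205 and 1222. At day 18 DBA arrays read 645, 565 and 495 against 877, 982 and 796. Treated and control arrays did not overlap in any response. The changes were -0.55 (adjusted p = 0.00213), -0.68 (adjusted p = 0.000306), -0.46 (adjusted p = 0.0102), -0.74 (adjusted p = 1.04e-05) and -0.62 (adjusted p = 0.000442), and the dimmer probe set was negative in each.

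Trim28 (KAP1), the corepressor of KRAB zinc fingers, rose in DBA mice at day 3, by 0.36 (adjusted p = 0.0356), and lost that call without any 1 of the 6 arrays compared; it changed by -0.14 in F1 mice. Trim33 (TIF1-gamma) was called in no response, its changes lying between -0.17 and 0.13. On a list of 11 partners of these proteins, such as heterochromatin proteins and histone deacetylases, 10 were tested. In the first 4 responses 2, 2, 1 and 1 were called, against 35.5%, 36.5%, 29.8% and 43.9% of all genes. In DBA mice at day 18 3 were higher and 3 lower, 60% of the 10, against 47.4% of all genes.

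**Figure D4:**
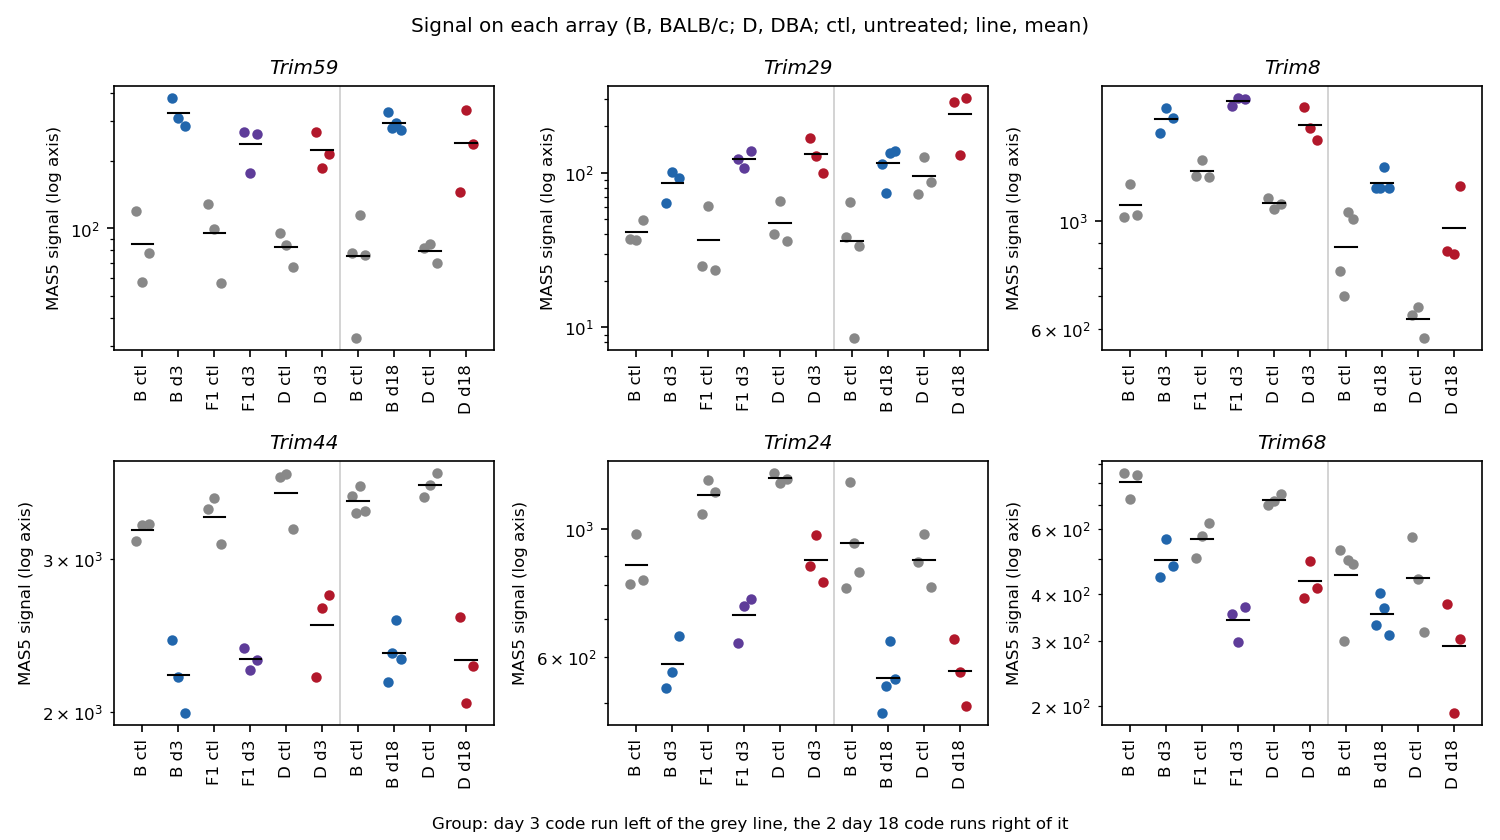
Signal on every array (points; log axis) of Trim59, Trim29, Trim8, Trim44, Trim24 and Trim68 by group, with a line at the group mean; grey points are untreated arrays. DBA arrays at day 3 move with the other treated groups in these panels, as for Trim44, at 2193 to 2723 against 3247 to 3754 in their controls.

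Among members best known from neurons and microtubules, 8 of 9 were tested. In the 5 responses 3, 2, 1, 1 and 1 rose and 0, 2, 0, 0 and 1 fell. The share of all genes called in either direction was 35.5%, 36.5%, 29.8%, 43.9% and 47.4%. Trim9, a brain ligase, was dim: BALB/c arrays at day 3 read 95.5, 83.8 and 128 against 14.2, 16.8 and 32.6, and DBA arrays 116, 73.9 and 57.3 against 5.6, 10 and 20.1. F1 arrays read 119, 8.6 and 58.8 against 26.8, 3.6 and 62.8, with wide spread and overlap. It passed the filter through 3 treated day 3 arrays, 1 of each strain, which favours a rise at day 3. The changes were 1.47 (adjusted p = 0.00541), 0.55 (adjusted p = 0.309) and 1.52 (adjusted p = 0.00535) at day 3 and 0.69 (adjusted p = 0.116) and 1.07 (adjusted p = 0.0318) at day 18, where the DBA call was lost without any 1 of 4 DBA arrays. With no filter the BALB/c and DBA day 3 values of Trim9 had adjusted p = 0.00528 and 0.00521.

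Trim67, the closest relative of Trim9, fell where it was called. DBA arrays at day 18 read 60.7, 10.1 and 29.9 against 153, 188 and 116, with a gap between the groups, and F1 arrays 34.9, 35.2 and 5.4 against 76.9, 99.7 and 82.5. Trim67 passed the filter through the 3 DBA controls of the day 18 run alone, where it is high, which favours a fall there. The changes were -1.22 (adjusted p = 0.0296) in F1 and -1.67 (adjusted p = 0.00234) in DBA mice at day 18, the latter with adjusted p = 0.00258 when no filter was set, and the F1 call was lost with the parental controls, -0.82 (adjusted p = 0.0767). Neuronal markers gave 0 of 7 called in each day 3 response and in BALB/c mice at day 18, and 1 called lower in DBA mice at day 18. At an unadjusted p below 0.05 the counts were 0, 0, 0, 0 and 1. In DBA mice at day 18 all 7 were negative (median -0.86), and their mean log2 signal was 7.9 to 8.23 against 8.56 to 9.41 in controls. In the other responses, in the same order, 7, 1, 0 and 6 were positive and 0, 6, 7 and 1 negative. The part of neuronal RNA in the fall of Trim67 was not tested. Trim46, a protein of axonal microtubules, changed by 0.65 (adjusted p = 0.032) and 0.68 (adjusted p = 0.0249) at day 3 in BALB/c and F1 mice, calls that were lost with quantile normalization. Trim47 changed by 0.57 (adjusted p = 0.0203), 0.55 (adjusted p = 0.023) and 0.61 (adjusted p = 0.0038) in BALB/c and F1 mice at day 3 and BALB/c mice at day 18; its F1 call was lost without any 1 of 3 arrays and its BALB/c day 3 call without either of 2. Trim37 changed by -0.48 (adjusted p = 0.00648) in F1 mice, and Trim2, Trim3 and Trim36 were called in no response.

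Of the epithelial members, Trim29 was called higher in 4 responses and Trim16 lower in 1. Trim29, which lacks a RING finger and is known from squamous epithelium and macrophages, read 167, 127 and 99.6 in DBA mice at day 3 against 39.9, 65.2 and 36.3, and 122, 107 and 138 in F1 mice against 25, 60.9 and 23.5. Treated arrays lay above all controls in both. Its changes were 0.73 (adjusted p = 0.0742), 1.31 (adjusted p = 0.00191), 1.11 (adjusted p = 0.00867), 1.25 (adjusted p = 0.000533) and 1.09 (adjusted p = 0.0057). Trim29 passed the filter on 12 arrays, 1 of them a control (DBA, day 18 run), which favours its rise. With no filter its adjusted p was 0.0969, 0.00247, 0.0114, 0.000679 and 0.00736 in the same order. Without the pancreas-rich array the BALB/c day 3 value was 0.73 (adjusted p = 0.0457), and the DBA day 3 call was lost without treated replicate 1. Trim16 fell in BALB/c mice at day 18, from 199, 295, 255 and 236 to 151, 172, 182 and 128, a change of -0.56 (adjusted p = 0.00642); its dimmer probe set changed by -0.34 (adjusted p = 0.0784). Of 7 epithelial markers, 0, 1, 1, 1 and 1 were called higher and 0, 2, 0, 0 and 1 lower in the 5 responses.

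The muscle members Trim7, Trim54, Trim63 and Trim72 did not pass the filter, with highest signals of 197.3, 53.3, 21.9 and 32.2, and so gave no test. The erythroid member Trim10 was tested and called in no response. Members that did not pass the filter include the ISRE-bearing Trim5 and Trim12a, whose highest signals over 32 arrays were 57.0 and 81.7.

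Read against the promoters shown above, the 7 tested genes with ISRE letters were called higher 5, 6, 1, 6 and 6 times in BALB/c, F1 and DBA mice at day 3 and BALB/c and DBA mice at day 18, and never lower. The 1 in DBA mice at day 3 was Trim30a. The gene outside the counts of 6 was Trim2, which held the letters at 1 of its 5 starts. The 21 tested genes whose windows lacked the letters were called higher 7, 5, 3, 4 and 4 times and lower 4, 5, 3, 2 and 5 times. Of all genes, 18.3%, 18.6%, 16.4%, 21.7% and 22.4% were called higher and 17.2%, 18%, 13.4%, 22.2% and 25% lower. Whether other genes with the letters rose was not tested. Only 28 of the 38 tested genes had a promoter entry. Trim3, Trim8, Trim11, Trim14, Trim16, Trim29, Trim33, Trim35, Trim36 and Trim65 had none and stand in neither group. Of these, Trim8 was called higher in 5 responses, Trim29 in 4, Trim65 in 3, and Trim11, Trim14 and Trim35 in 2. Trim16 was called lower in 1, and Trim3, Trim33 and Trim36 were not called. The median changes were 0.62, 1.17, 0.25, 1.16 and 0.90 with the letters and -0.04, -0.11, 0.07, -0.06 and -0.12 without. The 7 genes include neighbours with near-identical promoters and are not independent of each other, and a match is no evidence that a factor binds.

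Differences between strains at day 3 were few among Trim genes. The BALB/c response exceeded the DBA response for 2 genes, Trim25 and Trim30a, where 0.376% of all genes were called higher and 0.123% lower (0.499% in all). The F1 response did so for 4, Trim21, Trim25, Trim30a and Trim30d, where 1.68% were called higher and 0.338% lower (2.02%). Both comparisons use the same DBA day 3 arrays, which also entered the choice of the pattern genes. For Trim25, Trim30a and Trim30d these calls are therefore not independent of that choice. Trim21 came near the pattern on the same arrays. No Trim gene was called lower in either. Without the pancreas-rich array 8 were called in the F1 comparison, 6 higher and 2 lower, and with parental controls 6, the additions being Trim14 at 1.34 (adjusted p = 0.0393) and Trim26 at 0.54 (adjusted p = 0.00194). With limma, 0 were called between BALB/c and DBA responses at day 18, where 0.446% of all genes were called higher and 0.538% lower (0.983%), and 0 between BALB/c responses at day 18 and day 3, where 0.23% were called higher and 0.131% lower (0.361%); 2 and 2 had an unadjusted p below 0.05.

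In untreated mice of the day 3 run, 2 Trim genes were called, both higher in DBA than in BALB/c mice, where 4.02% of all genes were called higher and 3.64% lower (7.66%). Trim24 read 1252, 1205 and 1222 in DBA and 804, 982 and 816 in BALB/c mice, a difference of 0.49 (SE 0.13, adjusted p = 0.0215). The DBA controls of the day 18 run, 877, 982 and 796, lay below those of the day 3 run. Trim3, a neuronal NHL-domain ligase, read 961, 763 and 1012 and 775, 649.9 and 580.5, a difference of 0.43 (SE 0.13, adjusted p = 0.0326), with overlap. The count was 0 without untreated BALB/c replicate 3 or untreated DBA replicate 1, 1 without untreated BALB/c replicate 2 or untreated DBA replicate 2 or 3, and 5 without the pancreas-rich array. The genes of the pattern differed by -0.41 (adjusted p = 0.286), -0.26 (adjusted p = 0.847) and -0.36 (adjusted p = 0.0977) for Trim30a, Trim30d and Trim25.

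Tripartite proteins under other names were measured beside these. Pml, the organiser of nuclear bodies and an interferon target, rose in all 5 responses, by 1.42 (SE 0.16, adjusted p = 9.44e-08), 1.95 (SE 0.16, adjusted p = 3.63e-10) and 0.85 (SE 0.16, adjusted p = 0.000189) at day 3 and by 1.05 (SE 0.14, adjusted p = 6.17e-07) and 1.55 (SE 0.16, adjusted p = 1.15e-08) at day 18, and its growth in DBA mice was 0.70 (SE 0.22, adjusted p = 0.0695). Mefv (pyrin), an inflammasome sensor of myeloid cells, rose by 1.87, 1.70, 1.55, 2.44 and 2.41, with a growth of 0.86 (SE 0.35, adjusted p = 0.18). Neither followed the pattern. Mid2, a microtubule-associated ligase, changed by -0.80, -0.74, -0.30, -0.83 and -0.85 in the 5 responses and was called lower in all but DBA day 3. Mid1 rose in DBA mice at day 18, by 1.03 (SE 0.37, adjusted p = 0.0235).

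Of 19 genes of RIG-I signalling and ISG15 conjugation, 17 were tested. In the 5 responses 10, 11, 3, 10 and 10 were called higher and 0, 1, 1, 1 and 2 lower. The share of all genes called higher was 18.3%, 18.6%, 16.4%, 21.7% and 22.4%. The pattern was followed by 7 of the 17 (41.2%): the sensors Ddx58, Ifih1 and Dhx58, the kinase Ikbke, the factor Irf7 and the ISG15 enzymes Uba7 and Usp18. Of these, Ddx58, Ifih1, Dhx58, Irf7 and Usp18 are also on the interferon list. The 29 interferon-stimulated genes had a median change of 0.58 in DBA mice at day 3, with 13 called higher, and 2.86 at day 18, with 28 called higher. Irf7 and Ifit1 changed by 0.19 and 0.38 at day 3 and by 4.18 and 4.28 at day 18, against 0.25 and 3.98 for Trim30d and 0.28 and 1.24 for Trim25.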

How the data were processed

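Mesentery RNA (TRIzol and RNeasy, amplified from 1 µg, per the labels' protocols) was hybridised to 32 Affymetrix Mouse Genome 430 2.0 arrays. The authors deposited 1 intensity per probe set; the software was GCOS with MAS5 per the submitters' processing notes, and its versions are not given in the sources used here, and in the deposited values every array has a 2% trimmed mean of 500. Intensities were transformed as log2(signal + 24.9), the offset being the 25th percentile of all values. Of 45101 probe sets, 64 were array controls, 34945 had 1 symbol in the platform annotation, 932 several and 9160 none; 5 with several symbols named a Trim gene and were left out of the tests. The brightest single-symbol probe set stood for each gene, and genes needed a signal above 103.7, the median of all values, on 3 arrays. The series text names analysis of variance in Partek; here 1 linear model with 10 group means was fitted over all 32 arrays in limma 3.58.1 (R 4.3.3) with a variance trend, and p-values were adjusted by Benjamini-Hochberg over 13016 genes in each of 11 contrasts.

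Members and gene lists were chosen with earlier results of these data known. Named genes were the pattern members, the 3 largest called changes each way in each response, and untreated strain differences; others are named as members of a list. No 2 arrays held identical values. Array number limits the precision. Data were simulated around each gene's mean over all arrays, with 200 of 13016 genes changed. In these, 67% to 82% of genes changed by 1 log2 unit were recovered in the 5 responses and 56% in the DBA time difference. Far more genes were called in the 5 measured responses than were changed there, so these shares do not measure recovery in those responses. Alternatives covered the offset, filter, normalization, fit, weights, choice of probe set and leaving out each array; parental controls for F1 and each other probe set were added after seeing the data. Promoters came from RefSeq (GRCm38.p6), and the ISRE letters were searched on both strands over 300 bases.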

Additional observations from a re-analysis of the deposited data

Results flagged for a closer look

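Among 76 checks of groups of 4 arrays for an array far from the rest, 6 gave such an array, where chance gives about 1 in 20. In 5 of the 6 it was the pancreas-rich untreated BALB/c array of the day 18 run, which read 195.8 for Trim12c, 195.8 for Trim23, 391.0 for Trim47 and 299.5 for Trim68, below the other controls, and 3390.5 for Trim27, above them. The sixth was Trim8 on treated BALB/c replicate 3 at day 18, at 1289.4.

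Responses differed between times or strains (limma, adjusted p below 0.05) in 9 cases. Between DBA day 18 and day 3 they differed by 0.96 for Trim25, 2.07 for Trim30a and 3.73 for Trim30d. Between BALB/c and DBA mice at day 3 the differences were 0.82 for Trim25 and 1.70 for Trim30a. Between F1 and DBA mice they were 1.18 for Trim21, 0.84 for Trim25, 2.46 for Trim30a and 3.64 for Trim30d. All 9 use the DBA day 3 arrays, which entered the choice of Trim25, Trim30a and Trim30d as pattern genes.

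A pair of probe sets with several Trim symbols, which entered no test, also carried signal. The probe set shared by Trim30d and Trim30a had every treated array above every control in 4 responses. It read 1315 ± 209 (SD, n = 3) in DBA mice at day 18 against 131 ± 26.4, and 98.6 ± 5.45 at day 3 against 80.7 ± 17.5. The brighter probe set shared by Trim34b and Trim34a did so in 4 responses too, at 687 ± 181 (SD, n = 3) in F1 mice against 206 ± 26.1, and at 194 ± 54.6 in DBA mice at day 3 against 153 ± 46.4.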

How the results depend on the processing

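Of 96 called values of single Trim genes, 54 were called the same way under all 44 planned settings, 12 of which left out no array. Trim gene counts that moved by more than 1.5 times were 13 instead of 20 in F1 mice with the strict filter (518.5, fewer genes tested), and 16 instead of 10 in DBA mice at day 3 with array weights. Between the DBA days the count of 3 became 5 with a separate fit per comparison and 10 with array weights. Between BALB/c and DBA mice at day 3 the count of 2 became 1 with median centring or the mean over probe sets, and between F1 and DBA mice 4 became 7 with a separate fit and 10 with weights. The day 18 strain difference of 0 became 3 with weights and 1 with the most variable probe set. In untreated mice 2 became 1 with quantile normalization, median centring or a separate fit, 6 with weights, 4 with the mean and 5 with the most variable probe set. The interferon pattern held 5 genes with a separate fit and 9 with weights; the cause of these moves was not tested.

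Leaving out each array in turn gave 11 to 22 called genes in BALB/c, 15 to 23 in F1 and 8 to 15 in DBA mice at day 3, 17 to 21 in BALB/c and 15 to 23 in DBA mice at day 18, 3 to 5 between the DBA days, 1 to 3 for BALB/c against DBA and 4 to 8 for F1 against DBA mice at day 3, 0 to 0 in both comparisons of the BALB/c day 18 response, 0 to 5 in untreated mice, and 3 to 5 in the pattern.

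Other probe sets turned some signs. Trim26 gave -0.082 in BALB/c mice at day 3 with the mean over probe sets, and -0.50 there, -0.067 in BALB/c and -0.23 in DBA mice at day 18 with its dimmer, more variable set. Trim41 gave -0.064 in BALB/c mice at day 18. Trim37 in DBA mice at day 18, 0.03 with its brightest set, gave -0.32 with the mean and -0.62 and -0.37 with other sets. Single dimmer sets gave -0.42 for Trim27 and -0.10 for Trim34a in BALB/c mice at day 3 and -0.30 for Trim59 in BALB/c mice at day 18. With parental controls, added after seeing the data, 23 genes were called in F1 mice. No paired analysis was possible because the titles give no replicate numbers shared between groups.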

Other observations

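The other 3 probe sets with several symbols gave values that no comparison used. The set shared by H2aw and Trim17 read 958 ± 184 (SD, n = 3) in treated and 968 ± 41.8 in untreated DBA mice of the day 18 run. In DBA mice of the day 3 run it read 630.3 ± 77.5 and 650.0 ± 164. In DBA mice it thus differed between the title code runs, whose meaning is not stated, more than with treatment. The dimmer set shared by Trim34b and Trim34a read 193 ± 57.6 in DBA mice at day 18 against 63.0 ± 6.16, and 37.4 ± 10 at day 3 against 32.9 ± 1.72. The set shared by Gm38525 and Trim30b had a mean of 23.4 or less in every group.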
